A study of Mus musculus with 6 samples.

Results

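The near distal V genes are a stretch of the variable (V) gene array of the mouse immunoglobulin heavy chain (Igh) locus, taken here as positions 115723372 to 116439886 of chromosome 12 in build mm9. The contacts described are all pairs of 1 forward and 1 reverse 5C primer whose HindIII fragments both have their midpoint in that stretch. There are 462 such pairs, made of 22 forward and 21 reverse fragments, of 12656 possible Igh pairs and 18768 possible pairs in all. The choice used positions only and no read count. Fragments are called by the direction and number of their primer, such as FOR 399 or REV 428.

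Chromosome conformation capture carbon copy (5C) counts, for each forward and reverse primer, the sequenced products that join their 2 restriction fragments, so a count reflects how often the fragments were ligated in fixed nuclei. There were 3 cell types with 2 biological replicates each, and a gene desert on chromosome 5 was captured alongside Igh. Resting B cells were CD43-negative splenic cells isolated with magnetic beads and used directly. Pro-B cells came from the bone marrow of Rag2-deficient mice and had been grown for 4 days with interleukin 7; mouse embryonic fibroblasts (MEF) are outside the B lineage. Strain, age and sex are not given in the sources used here. 5C holds no expression, so the labelled cell types could not be checked against marker genes, and culture and cell type cannot be told apart.

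Antibody heavy chains are assembled by V(D)J recombination, which joins 1 of many V genes to a D and a J gene and deletes the DNA between them. In the mouse the V genes lie upstream of the D and J genes over more than a megabase, and the distal V genes, largely of the Ighv1 and Ighv8 families, lie farthest away. In pro-B cells the locus is known to contract, which brings distal V genes closer to the D and J genes. Without Rag2 the DNA stays unrearranged, whereas resting B cells carry rearranged alleles that have lost the DNA between the joined V gene and the D and J genes. In 5C counts, fewer copies of a fragment and fewer contacts per copy cannot be told apart.

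The 43 fragments were 1012 to 10928 bp long and covered 163.892 kb of the 716.515 kb stretch. They lie in 2 sides split by the longest stretch without a primer, 142.699 kb between REV 464 and FOR 494. The near side, closer to the D and J genes, holds 24 fragments from position 115723372 to 116000828, and the far side holds 19 from 116143528 to 116439886. Single V genes are not named, since no annotation of that build was used here. Midpoints of a pair were 1.47 to 711 kb apart with a median of 219 kb, against a median of 941 kb over all Igh pairs.

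Libraries held 20580457 to 24191175 valid read pairs. Over the members, the 2 libraries of a cell type differed beyond counting error, with a chi-square of 65.9 for resting B, 574 for pro-B and 418 for MEF per degree of freedom, so each counted as 1 replicate. Pearson's r between replicates over the log counts of the 462 pairs, which share fragments and are no replicates, was 0.985 for resting B, 0.910 for pro-B and 0.974 for MEF. Spearman's rho between libraries of different cell types was 0.67 to 0.71 for resting B with pro-B, 0.83 to 0.87 for resting B with MEF, and 0.84 to 0.91 for pro-B with MEF. Products joining Igh to the desert were 0.554% of the reads of pro-B replicate 1 and 2.02% to 3.41% of those of the other 5 libraries.

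Of the 462 pairs, 439 had at least 10 reads in at least 2 libraries and were tested. The 23 others were all 21 pairs of FOR 451, which had at most 7 reads in any library, and FOR 377 with REV 552 and FOR 436 with REV 528. Between 19 and 47 of the 462 pairs had no read in a library, which allows up to 3 reads at a limit that covers counting error only.

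Contacts within the near distal V genes took a smaller share of the Igh reads in resting B cells than in the other cell types. The share was 5.08% and 4.69% in the resting B libraries, 12.8% and 9.77% in the pro-B libraries and 11.3% and 9.58% in the MEF libraries, from 889417 to 2644197 reads. The 95% Wilson intervals were 5.07% to 5.09% and 4.68% to 4.70% in resting B, 12.8% to 12.9% and 9.76% to 9.78% in pro-B, and 11.3% to 11.3% and 9.57% to 9.59% in MEF. The pairs are 3.65% of the possible Igh pairs. Both resting B libraries lay below all 4 others, and pro-B and MEF overlapped.

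Summed over the region, reads scaled to library size (CPM) were 40592 and 41166 in resting B libraries, 150900 and 86332 in pro-B libraries, and 146301 and 74002 in MEF. The sum in resting B cells was lower than in pro-B cells (log2 fold -1.54 ± 0.49 SE, edgeR adjusted p = 0.0372) and lower than in MEF (-1.43 ± 0.49, edgeR adjusted p = 0.0403). The pro-B sum was not distinguishable from that in MEF (0.11 ± 0.48, edgeR adjusted p = 0.938). Among the sums of all 55 pairs of 10 Igh regions, 21.8% were lower and 20.0% higher in resting B than in pro-B libraries, and 16.4% were lower and 32.7% higher in resting B cells than in MEF; in pro-B over MEF 9.09% were higher and 0% lower.

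Against pro-B, the resting B call was lost without resting B replicate 1 (adjusted p = 0.229), resting B replicate 2 (0.215) or pro-B replicate 1 (log2 fold -1.09, adjusted p = 0.106), all by edgeR. Against MEF it was lost by edgeR without resting B replicate 1 (adjusted p = 0.266), resting B replicate 2 (0.255) or MEF replicate 1 (-0.86, adjusted p = 0.173). It was also lost on removing each library's trend of counts with distance: the log2 fold was then -0.69 against pro-B (edgeR adjusted p = 0.0618) and -0.51 against MEF (0.121).

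A sum follows its strongest pairs, and in each library the top 10 members took 57.2% to 59.6% of the member reads. Counting each pair once, as the mean of log2(CPM + 1), the log2 difference was -0.65 ± 0.20 for resting B over pro-B (limma adjusted p = 0.0249), -0.65 ± 0.20 for resting B over MEF (limma adjusted p = 0.0274) and -0.0002 for pro-B over MEF (limma adjusted p = 0.999). Most region pairs passed this limma test over pro-B, with 26 of 55 higher and 19 lower, so passing was not particular to this region. Over MEF it called 20 higher and 17 lower of 55, and in pro-B over MEF 6 higher and 11 lower. The median pair had 6.62 and 5.51 CPM in resting B libraries, 11.2 and 9.05 CPM in pro-B libraries, and 10.1 and 9.08 CPM in MEF.

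The middle and far distal V genes, on either side of the near distal ones, changed in the same direction. Within the far distal V genes the sums were 21943 and 20090 CPM in resting B libraries, 89591 and 36556 CPM in pro-B libraries, and 70090 and 41305 CPM in MEF. The fold within the near distal V genes differed from that within the far distal ones by -0.05 ± 0.44 (log2) for resting B over pro-B (edgeR adjusted p = 0.929) and by 0.01 ± 0.44 for resting B over MEF (edgeR adjusted p = 0.987). It differed from that within the middle V genes by 0.19 ± 0.22 (edgeR adjusted p = 0.428) and by -0.03 ± 0.22 (edgeR adjusted p = 0.932). Differences of the size of these standard errors were not detectable.

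**Figure D1:**
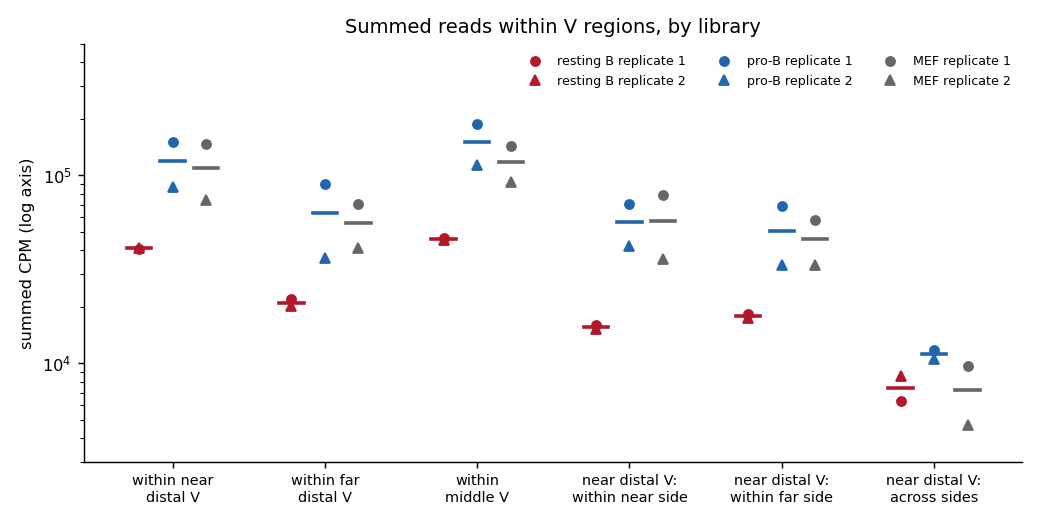
Summed CPM (log axis) within the near distal V genes, the far distal and the middle ones and, for the near distal V genes, within the near side, within the far side and across the sides. Circles and triangles are replicates 1 and 2, bars are means, and red, blue and grey are resting B, pro-B and MEF; both resting B libraries lie below all 4 others in every column except the sum across the sides.

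The fragments of the near distal V genes did not lose reads with every partner in resting B cells. Their sum with the 3′ regulatory region, an enhancer cluster downstream of the constant genes, was 27334 and 73176 CPM in resting B libraries, 5181 and 10021 CPM in pro-B libraries, and 13487 and 5361 CPM in MEF. It was higher in resting B cells than in pro-B cells (log2 fold 2.72 ± 0.61, edgeR adjusted p = 0.0118) and than in MEF (2.41 ± 0.60, edgeR adjusted p = 0.0108). Sums with the constant genes were also higher, by 0.89 ± 0.31 over pro-B (edgeR adjusted p = 0.0453) and 1.04 ± 0.31 over MEF (0.0255). The call over pro-B was close to the threshold and depended on single libraries. With 1 library left out, these folds were 0.52 to 1.38 over pro-B and 0.86 to 1.23 over MEF. With the 3′ flank of the locus the folds were 0.80 ± 0.35 (edgeR adjusted p = 0.0786) and 1.65 ± 0.36 (0.00829). Sums with the middle (-1.11 ± 0.32, edgeR adjusted p = 0.0275) and far distal V genes (-1.61 ± 0.41, 0.0228) were lower over pro-B. Over MEF they were -0.79 ± 0.31 (edgeR adjusted p = 0.0645) and -0.84 ± 0.40 (0.105), and did not pass. The sum with the D-J region was 2537 and 2948 CPM in resting B libraries, 2449 and 4369 CPM in pro-B libraries, and 2878 and 2090 CPM in MEF, with folds that did not pass (edgeR adjusted p = 0.392 for resting B over pro-B, 0.715 for resting B over MEF and 0.462 for pro-B over MEF). Without MEF replicate 2 the fold over MEF with the 3′ regulatory region was 1.89 and did not pass (edgeR adjusted p = 0.140). Without resting B replicate 2 it was 1.86 ± 0.46 over pro-B (edgeR adjusted p = 0.00277) and 1.54 ± 0.46 over MEF (0.00933). Without pro-B replicate 1 the D-J sum was lower in resting B than in pro-B cells (-0.69, edgeR adjusted p = 0.0113) and higher in pro-B cells than in MEF (0.82, 0.00299), while without pro-B replicate 2 the folds were 0.15 (edgeR adjusted p = 0.576) and -0.02 (0.943).

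In each distance class under 200 kb, contacts were fewer in resting B than in pro-B cells. Summed reads under 50 kb were 717860 and 611050 in resting B cells, against 2122678 and 1537616 in pro-B cells (log2 fold -1.68 ± 0.51, edgeR adjusted p = 0.0416). From 50 to 100 kb they were 42877 and 38711 in resting B cells, against 213774 and 141345 in pro-B cells (-2.34 ± 0.47, edgeR adjusted p = 0.0115). From 100 to 200 kb they were 41400 and 41100 in resting B cells, against 102557 and 103852 in pro-B cells (-1.50 ± 0.27, edgeR adjusted p = 0.00788).

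Groups did not overlap in these 3 classes, and all 3 passed, against 31.9% lower and 16.8% higher over all 113 region by distance sums. Beyond 200 kb neither class passed, with log2 folds of -0.29 ± 0.36 from 200 to 400 kb (edgeR adjusted p = 0.494) and -0.53 ± 0.49 over 400 kb (0.379). None of the 3 classes passed without either resting B replicate, and the class under 50 kb also failed without pro-B replicate 1 (edgeR adjusted p = 0.104).

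Against MEF, resting B cells were lower under 50 kb (log2 fold -1.64 ± 0.51, edgeR adjusted p = 0.0426) and from 50 to 100 kb (-2.28 ± 0.47, edgeR adjusted p = 0.0108). From 100 to 200 kb the fold was -0.71 ± 0.26 and did not pass (edgeR adjusted p = 0.0644). Among all region by distance sums, 15.9% were lower and 26.5% higher in resting B cells than in MEF; in pro-B over MEF 13.3% were higher and 0% lower, and no class within the near distal V genes passed. Leaving out resting B replicate 1, resting B replicate 2 or MEF replicate 1 left 1, 0 and 0 classes.

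Medians over single pairs were taken by the same classes. For resting B over pro-B, median log2 folds were -1.35 under 50 kb (92 pairs), -1.11 from 50 to 100 kb (50), -0.94 from 100 to 200 kb (67), -0.23 from 200 to 400 kb (101) and -0.58 over 400 kb (129). In the same classes, Igh pairs outside the region had medians of -0.05, -0.03, 0.05, -0.28 and 0.09. For resting B over MEF the members' medians were -1.36, -1.24, -1.05, -0.48 and -0.26, and those of the other Igh pairs -0.38, -0.22, -0.12, -0.27 and 0.10.

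**Figure D2:**
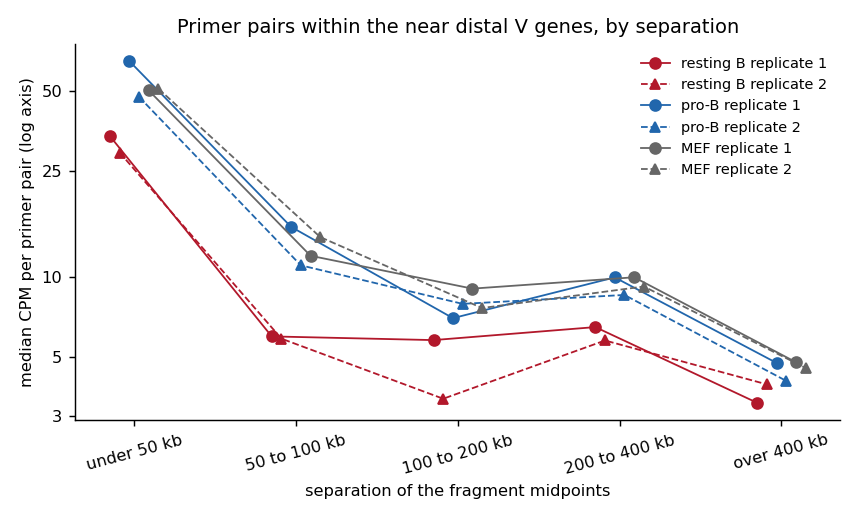
Median CPM per primer pair (log axis) of the members in 5 classes of midpoint separation, for each library; circles with full lines are replicate 1 and triangles with dashed lines replicate 2. The resting B medians are 33.9 and 29.4 under 50 kb, against 64.9 and 47.6 in pro-B libraries and 50.4 and 51.1 in MEF, and come nearest to the others over 400 kb.

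Over the 462 pairs, log2(CPM + 1) fell with distance by 0.619 and 0.592 per doubling of distance in resting B libraries, 0.782 and 0.761 in pro-B libraries, and 0.830 and 0.757 in MEF, as a description. Both resting B slopes were the shallowest. Reads over 400 kb made up 11.5% and 17.1% of the member reads in resting B libraries, 5.29% and 10.3% in pro-B libraries, and 5.12% and 3.53% in MEF.

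The 6 pairs with the highest mean CPM joined fragments close together on the chromosome. FOR 513 with REV 514, 1.47 kb apart, had 3051 and 2543 CPM in resting B libraries, 13391 and 5964 CPM in pro-B libraries, and 14516 and 6411 CPM in MEF. FOR 402 with REV 401, 4.04 kb apart, had 1247 and 1292 CPM in resting B libraries, 10277 and 7703 CPM in pro-B libraries, and 6139 and 3643 CPM in MEF, and was lower in resting B than in pro-B cells (log2 fold -2.82 ± 0.48, edgeR adjusted p = 0.0276). Both resting B libraries were the lowest for each of these pairs.

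All 13 tested pairs of neighbouring fragments had a log2 fold below 0 for resting B over pro-B, and 5 passed as lower, with a median of -1.79. Against MEF all 13 were below 0, 1 passed, and the median was -1.90. Neighbouring pairs elsewhere in Igh had medians of -0.96 and -1.17 over 76 pairs, with 24 and 9 lower. FOR 573 with REV 571, 3.30 kb apart, changed least among the 6 pairs with the highest mean CPM, with 82315 and 72740 reads in resting B libraries, 118015 and 90487 reads in pro-B libraries, and 97020 and 102323 reads in MEF (log2 fold -0.63 ± 0.47 over pro-B and -0.46 ± 0.47 over MEF, edgeR adjusted p = 0.395 and 0.610).

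Single pairs were compared over the whole Igh table. In resting B over pro-B, 2 members were higher and 67 lower of 439, against 2.74% higher and 5.16% lower of all 11940 tested Igh pairs. The members' median log2 fold was -0.85, against 0.01 over all Igh pairs, and 281 of 439 (64.0%) were below 0. Both libraries of resting B lay below both of pro-B for 211 members and above for 85, against 29.0% below and 33.0% above over all Igh pairs.

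The middle V genes had 102 lower and 0 higher of 617 pairs (median -1.09), and the far distal V genes had 33 lower and 0 higher of 192 (median -1.33). The counts of 67 lower and 2 higher members depended on single libraries. They were lost in some fits with 1 library left out and far larger in others. The members' median log2 fold was -1.0 to -0.54 in those fits. Whether the changes in count were particular to the members was not tested. With only the 4 resting B and pro-B libraries in the fit no pair passed in either direction.

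The pair with the lowest p was FOR 429 with REV 428, neighbours 5.01 kb apart on the near side (115855285-115858063 and 115848051-115855284). It had 298 and 139 reads in resting B libraries, 48562 and 34129 reads in pro-B libraries, and 12806 and 18006 reads in MEF. The resting B libraries were the lowest by far, and MEF lay between. The log2 fold was -7.80 ± 0.66 over pro-B (edgeR adjusted p = 0.0189) and -6.21 ± 0.61 over MEF (edgeR adjusted p = 0.0383).

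FOR 399 (115776652-115778814), also on the near side, took part in 4 of the 8 lower pairs with the lowest p. With REV 428, 73.9 kb away, it had 38 and 22 reads in resting B libraries, 1780 and 1858 reads in pro-B libraries, and 288 and 291 reads in MEF, which gave log2 folds of -6.10 ± 0.57 over pro-B (edgeR adjusted p = 0.0189) and -3.39 ± 0.51 over MEF (0.0440). With REV 450 (115938466-115941645), 162 kb away, it had 176 and 83 reads in resting B libraries, 12565 and 23498 reads in pro-B libraries, and 7061 and 2232 reads in MEF (-7.25 ± 0.96 over pro-B, edgeR adjusted p = 0.0213). The 3 cell types did not overlap in either pair.

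FOR 399 also had fewer reads in resting B cells with more distant partners. With REV 464, 220 kb away and the last fragment of the near side, it had 334 and 241 reads in resting B libraries, 3409 and 3788 reads in pro-B libraries, and 926 and 858 reads in MEF (-3.82 ± 0.46 over pro-B, edgeR adjusted p = 0.0195). With REV 512 on the far side, 433 kb away, it had 219 and 164 reads in resting B libraries, 1716 and 3776 reads in pro-B libraries, and 527 and 434 reads in MEF (-3.94 ± 0.54, edgeR adjusted p = 0.0214). Over its 21 tested partners, FOR 399 had folds from -7.25 to 0.72, with 9 lower. Its reads summed over the region had a fold over pro-B that did not pass (-1.15 ± 0.51, edgeR adjusted p = 0.120). With Igh fragments outside the region its fold was -1.17 ± 0.42 (edgeR adjusted p = 0.0616), and with the gene desert -0.82 ± 0.46 (0.219). The lower reads of FOR 399 were thus not particular to partners within the region.

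FOR 436 (115880011-115885590) gave 2 more, though its reads summed over the region did not pass over pro-B (-0.78 ± 0.51, edgeR adjusted p = 0.259). With REV 545 (116342486-116353413), 465 kb away, it had 121 and 79 reads in resting B libraries, 3301 and 2344 reads in pro-B libraries, and 675 and 1754 reads in MEF, with log2 folds of -5.04 ± 0.56 over pro-B (edgeR adjusted p = 0.0189) and -3.57 ± 0.52 over MEF (0.0440). With REV 464, 114 kb away, it had 183 and 41 reads in resting B libraries, 17185 and 7025 reads in pro-B libraries, and 3458 and 4583 reads in MEF (-7.06 ± 0.97 over pro-B, edgeR adjusted p = 0.0214). The remaining one, FOR 423 with REV 420 (8.59 kb), had 261 and 193 reads in resting B libraries, 2617 and 2498 reads in pro-B libraries, and 726 and 1545 reads in MEF (-3.68 ± 0.44, edgeR adjusted p = 0.0195).

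2 members were higher in resting B than in pro-B cells. FOR 513 with REV 499, 48.1 kb apart on the far side, had 1158 and 838 reads in resting B libraries, 227 and 212 reads in pro-B libraries, and 507 and 642 reads in MEF (1.99 ± 0.45, edgeR adjusted p = 0.0449). FOR 548 with REV 435, 478 kb apart across the gap, had 240 and 156 reads in resting B libraries, 12 and 6 reads in pro-B libraries, and 135 and 109 reads in MEF (4.20 ± 0.96, edgeR adjusted p = 0.0452). In both, pro-B cells were below resting B cells and MEF alike.

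**Figure D3:**
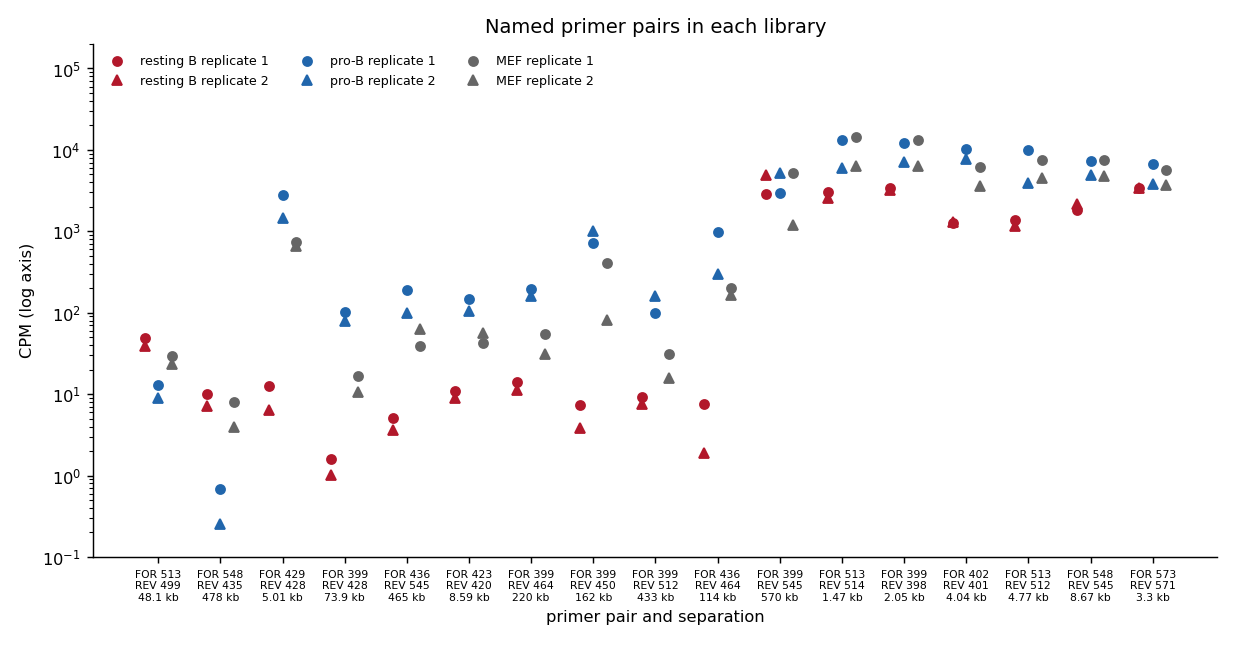
CPM (log axis) in each library of the 2 higher and 8 lower members with the lowest p in resting B over pro-B, of FOR 399 with REV 545, and of the 6 members with the highest mean CPM; circles and triangles are replicates 1 and 2, and red, blue and grey are resting B, pro-B and MEF. In each of the 8 lower pairs both resting B libraries lie below all 4 others.

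Against MEF, 3 members were lower in resting B cells and 0 higher of 439, by edgeR. Over all Igh pairs 0.385% were lower and 0.369% higher. The 3 were FOR 429 with REV 428, FOR 399 with REV 428 and FOR 436 with REV 545, given above. At an unadjusted p under 0.05, 4 members were higher and 124 lower, against 1043 higher and 1458 lower of 11940 Igh pairs. DESeq2 called 1 member higher and 86 lower, and its count over all Igh pairs is not given. The members' median log2 fold was -0.69, against -0.02 over all Igh pairs, and 303 of 439 (69.0%) were below 0. Both resting B libraries lay below both MEF libraries for 255 members and above for 63, against 35.9% below and 33.9% above over all Igh pairs. The count of 3 lower members was lost in some fits with 1 library left out and far larger in others, with a median of -0.86 to -0.62. With only the resting B and MEF libraries in the fit the count was 136, and the count over all Igh pairs is not given.

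The 4 members with the lowest p among those higher in both resting B libraries than in both MEF libraries did not pass. FOR 402 with REV 571, 647 kb apart, had 580 and 384 reads in resting B libraries, 224 and 269 reads in pro-B libraries, and 127 and 197 reads in MEF (log2 fold 1.53 ± 0.51 over MEF, edgeR adjusted p = 0.158). FOR 513 with REV 571 (1.14 ± 0.44), FOR 573 with REV 435 (1.46 ± 0.58) and FOR 542 with REV 571 (1.00 ± 0.41) had edgeR adjusted p of 0.204, 0.211 and 0.222. Of these 4, 3 hold REV 571 near the far end of the region.

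No member passed in pro-B over MEF by edgeR, and none of the 11940 Igh pairs did (0% in either direction). At an unadjusted p under 0.05, 34 members were higher and 13 lower, against 596 higher and 498 lower of the 11940 Igh pairs. DESeq2 called 9 members higher and 3 lower, and its count over all Igh pairs is not given. The median log2 fold was 0.12, against 0.03 over all Igh pairs, and both pro-B libraries lay above both MEF libraries for 104 members and below for 80, against 19.3% above and 22.8% below over all Igh pairs. Counts of called members changed with the library left out, and the members' median log2 fold was then -0.20 to 0.24.

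The 4 higher members with the lowest p in pro-B over MEF all held FOR 399, and none passed. With REV 428 its log2 fold was 2.72 ± 0.48 (edgeR adjusted p = 0.320), with REV 512 2.47 ± 0.50 (0.333), with REV 464 2.06 ± 0.43 (0.333) and with REV 514 2.23 ± 0.51 (0.359). FOR 399 had a fold above 0 with 19 of its 21 tested partners in this comparison. Its folds were also above 0 outside the region, and did not pass. They were 1.05 ± 0.42 with other Igh fragments (edgeR adjusted p = 0.219) and 0.85 ± 0.46 with the gene desert (0.373).

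Among the lower ones, FOR 494 with REV 499, 19.6 kb apart and the first fragments of the far side, had no read in either pro-B library, and 75 and 4 reads in MEF, while the resting B libraries had 150 and 203. Against a floor of 3 reads per library, pro-B was at least 15.2-fold lower than MEF, with an edgeR adjusted p of 0.433. That bound rests on MEF replicate 1 (4.39 CPM), since MEF replicate 2 (0.146 CPM) was under the floor. FOR 548 with REV 435 (-3.66 ± 0.94, edgeR adjusted p = 0.401), FOR 419 with REV 509 (-3.73 ± 1.11, 0.433) and FOR 412 with REV 418 (-1.77 ± 0.55, 0.433) were the others, and did not pass.

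The folds of single pairs were patterned by fragment. A sum of 1 value per forward and 1 per reverse fragment accounted for 75.5% of the variance of the 439 log2 folds in resting B over pro-B, 72.9% in resting B over MEF and 52.5% in pro-B over MEF, as a description with 21 forward and 21 reverse fragments. The 67 lower pairs fell on 29 fragments. FOR 556 had the most, 11 of its 21 tested pairs, with a median log2 fold of -3.51.

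**Figure D4:**
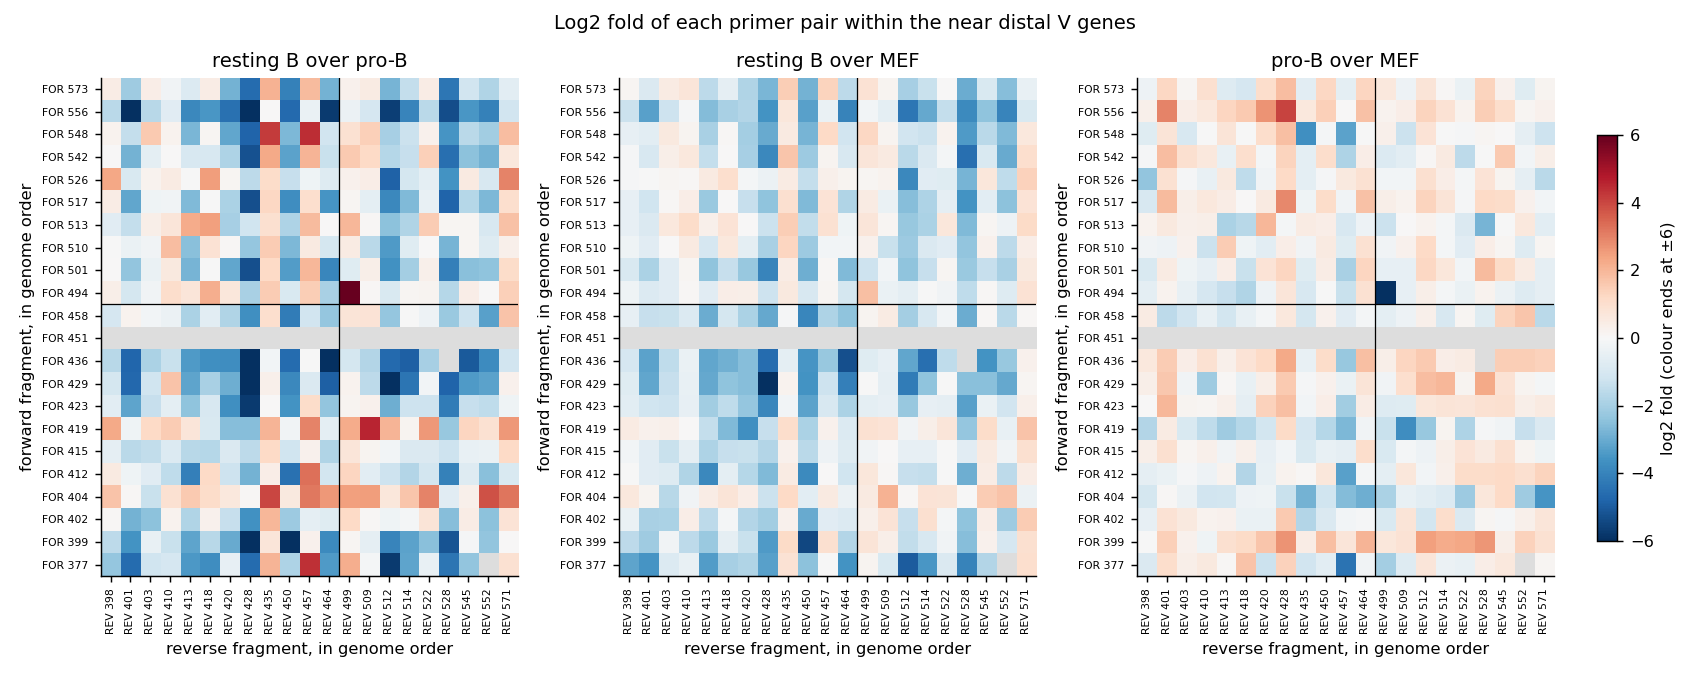
Log2 folds of each tested pair for resting B over pro-B, resting B over MEF and pro-B over MEF, with forward fragments as rows and reverse fragments as columns in genome order; blue is lower and red higher in the first-named cell type, grey is not tested, and black lines mark the gap between the sides. The columns of REV 428, REV 450 and REV 528 and the row of FOR 556 are mostly blue in the first map, while REV 435, REV 457 and FOR 404 are mostly red.

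Summed over all its partners within the region, each fragment gave 1 value. Each pair enters the sums of both its fragments, and a sum follows its strongest pairs, so these values are not independent. A lower sum also did not mean that most pairs were lower. Over pro-B, REV 398 (-1.62, edgeR adjusted p = 0.0436) and FOR 513 (-1.79, 0.0409) had median pair folds of 0.0016 and 0.12. For REV 428 that median was -4.61. These 3 were chosen after their values were seen. In resting B over pro-B, 24 of 42 fragments were lower and 0 higher, and 41 had a log2 fold below 0, against 17.8% lower and 18.2% higher over all 2240 sums of an Igh fragment with a region. In resting B over MEF, 23 were lower and 0 higher, and all 42 were below 0, against 12.6% lower and 19.2% higher. In pro-B over MEF none passed by edgeR, against 1.38% higher and 0.0446% lower, and 17 of 42 were below 0. Reads of the same fragments with Igh fragments outside the region were lower in resting B than in pro-B cells for 12 and higher for 3 (37.3% lower and 9.33% higher over 225 Igh fragments), and lower than in MEF for 7 and higher for 3 (31.1% and 4%); 0 passed in pro-B over MEF (0% in either direction).

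The 24 comprised 13 of 23 fragments on the near side and 11 of 19 on the far side; against MEF the numbers were 16 and 7. The 24 became 4 without resting B replicate 1 and 0 without resting B replicate 2. The 23 became 0 without resting B replicate 1, resting B replicate 2 or MEF replicate 1. Fragment length showed little relation to the fold over pro-B (Spearman's rho -0.04 over 42 fragments, as a description), with a rho of 0.27 for the fold over MEF and 0.54 for pro-B over MEF (Pearson's r 0.45). For position the rho was 0.17 over pro-B, 0.36 over MEF and 0.24 for pro-B over MEF.

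REV 428 had the lowest fold. Its reads within the region were 1772 and 1195 in resting B libraries, 76500 and 44082 in pro-B libraries, and 18246 and 25545 in MEF. The log2 fold was -5.59 ± 0.54 over pro-B (edgeR adjusted p = 0.00275) and -3.95 ± 0.50 over MEF (0.00483), and 20 of its 21 tested pairs were below 0 over pro-B.

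REV 450 followed with 1166 and 663 reads in resting B libraries, 17957 and 26792 reads in pro-B libraries, and 9889 and 6337 reads in MEF (-4.76 ± 0.55 over pro-B, edgeR adjusted p = 0.00321; -3.35 ± 0.51 over MEF, 0.00607). FOR 429 had 3277 and 2198 reads in resting B libraries, 53354 and 37951 reads in pro-B libraries, and 15633 and 22991 reads in MEF (-4.28 ± 0.44, edgeR adjusted p = 0.00290; -2.87 ± 0.42, 0.00542). For all 3, MEF lay between resting B and pro-B cells.

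REV 528 (116286772-116293346) on the far side had 1066 and 695 reads in resting B libraries, 9719 and 6021 reads in pro-B libraries, and 3691 and 5876 reads in MEF (-3.40 ± 0.44 over pro-B, edgeR adjusted p = 0.00378; -2.48 ± 0.43 over MEF, 0.00778). REV 401 (115780319-115786560) had 37138 and 33201 reads in resting B libraries, 213633 and 194165 reads in pro-B libraries, and 114428 and 114885 reads in MEF (-2.72 ± 0.42 over pro-B, edgeR adjusted p = 0.00519). FOR 377 (115723372-115724782), at the near end, had 14141 and 13943 reads in resting B libraries, 67465 and 45342 in pro-B libraries, and 119332 and 89403 in MEF (-3.05 ± 0.53 over MEF, edgeR adjusted p = 0.00841). Scaled to library size, its pro-B (3850 and 1926 CPM) and MEF values (6977 and 3262 CPM) overlapped. Its pro-B over MEF fold did not pass (-0.83 ± 0.50, edgeR adjusted p = 0.390).

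Other fragments, chosen after their values were seen, did not pass over pro-B. REV 435 (115877939-115880010) had 70688 and 62379 reads in resting B libraries, 64282 and 40404 reads in pro-B libraries, and 71865 and 85464 reads in MEF (0.12 ± 0.43 over pro-B, edgeR adjusted p = 0.837). It is directly beside FOR 436. Of its 21 tested pairs 20 had a fold above 0 over pro-B, as had 15 of 21 for REV 457 and 19 of 21 for FOR 404, with medians of 1.20, 1.10 and 1.55. The summed reads of REV 457 (-1.01 ± 0.42, edgeR adjusted p = 0.102) and FOR 404 (-1.03 ± 0.45, 0.111) had folds below 0 over pro-B, opposite to their pair medians. Over MEF the sums were -1.71 ± 0.43 (edgeR adjusted p = 0.0244) for REV 457 and -1.37 ± 0.45 (0.0554) for FOR 404. Of all these pairs, FOR 548 with REV 435 was the only one past the threshold.

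The same fragments were read in the gene desert. A product of an Igh fragment with the desert joins 2 chromosomes, so it holds no contact within Igh. These sums were scaled on their own, by their totals over all Igh fragments with TMM factors. In resting B over pro-B these reads had a median log2 fold of -0.47 over the 42 fragments and were lower for 5: REV 420 (-2.56 ± 0.48), REV 428 (-2.52 ± 0.50), REV 450 (-2.22 ± 0.43), FOR 556 (-2.11 ± 0.49) and REV 401 (-1.56 ± 0.43), with edgeR adjusted p of 0.00531, 0.00531, 0.00531, 0.0128 and 0.0320. Of all 224 Igh fragments, 6.25% were lower and 2.68% higher.

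REV 428 had 70 and 109 desert reads in resting B libraries, 103 and 548 reads in pro-B libraries, and 84 and 88 reads in MEF. In resting B over MEF the median was -0.11 and no fragment of the region passed, against 0.446% lower and 0% higher over all Igh fragments. Folds within the region and with the desert correlated with Pearson's r of 0.57 and Spearman's rho of 0.53 over pro-B, and 0.68 and 0.70 over MEF (42 fragments sharing libraries and primers, as a description).

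Pairs with 1 of those 5 fragments made up 33 of the 67 lower calls over pro-B, and 101 of the 439 tested pairs, with a median log2 fold of -2.69. The 338 pairs without them had 34 lower, 2 higher and a median of -0.26, and -0.42 over MEF. Offsetting every pair by its fragments' desert reads left 0 members called and a median of -0.11 over pro-B and -0.29 over MEF, with a region sum of -0.93 ± 0.34 over pro-B (edgeR adjusted p = 0.128) and -1.13 ± 0.34 over MEF (0.050). Over all Igh pairs that offset left 0 higher and 1 lower over pro-B, against 327 higher and 616 lower without it. The loss of calls was thus not particular to the members. Desert reads of a fragment can be few, such as 7 to 98 per library for FOR 429, so the offset also adds their counting error.

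**Figure D5:**
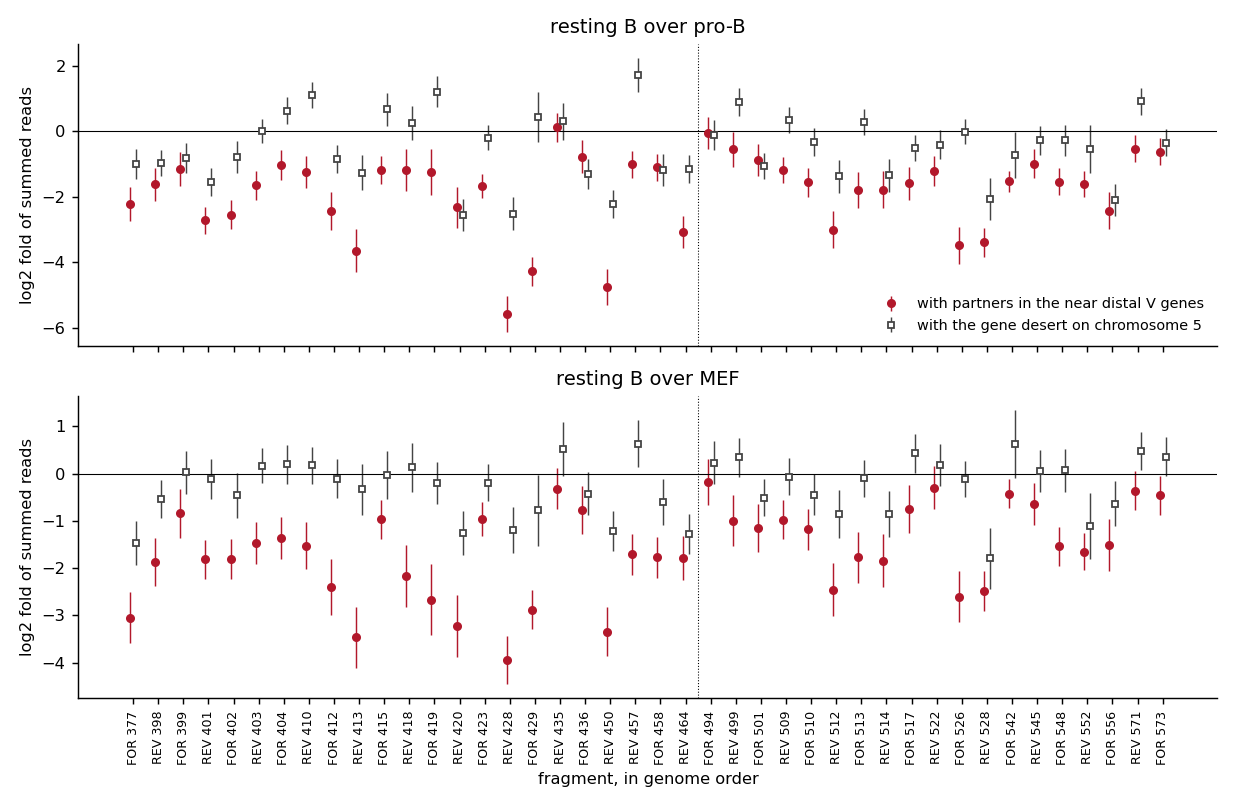
Log2 fold (± SE) of the reads of each of 42 fragments, in genome order, with partners within the near distal V genes (red circles) and with the gene desert on chromosome 5 (open squares), for resting B over pro-B (top) and resting B over MEF (bottom); the dotted line is the gap between the sides. Within the region 41 of 42 fragments are below 0 over pro-B and 42 of 42 over MEF, while desert medians are -0.47 and -0.11.

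Folds within the 2 sides differed from the fold between them in resting B over MEF, and over pro-B this passed for the near side only. Within the near side the sums were 16018 and 15188 CPM in resting B libraries, 70676 and 42344 CPM in pro-B libraries, and 78501 and 36090 CPM in MEF. Within the far side they were 18259 and 17442 CPM in resting B libraries, 68431 and 33402 CPM in pro-B libraries, and 58134 and 33222 CPM in MEF. Across the sides they were 6315 and 8536 CPM in resting B libraries, 11793 and 10586 CPM in pro-B libraries, and 9666 and 4690 CPM in MEF.

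Both within-side sums were lower in resting B than in pro-B cells, with log2 folds of -1.86 ± 0.46 on the near side (edgeR adjusted p = 0.0144) and -1.51 ± 0.44 on the far side (0.0254), against 22.7% lower and 18.2% higher over 66 such sums. They were also lower in resting B cells than in MEF, at -1.88 ± 0.46 (edgeR adjusted p = 0.00898) and -1.36 ± 0.44 (0.0322), against 16.7% lower and 31.8% higher; in pro-B over MEF neither passed, against 6.06% higher and 0% lower. The sum across was -0.59 ± 0.34 over pro-B (edgeR adjusted p = 0.161) and 0.05 ± 0.34 over MEF (0.889). Without either resting B replicate the within-side calls did not pass, the far side also failed over pro-B without pro-B replicate 1 (adjusted p = 0.0822), and both sides failed over MEF without MEF replicate 1 (0.0551 and 0.165), by edgeR.

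Tested as a difference, the fold within the near side was below the fold across by -1.87 ± 0.45 (log2) for resting B over MEF (edgeR adjusted p = 0.000921) and by -1.21 ± 0.44 for resting B over pro-B (0.0276). For the far side these differences were -1.41 ± 0.45 (edgeR adjusted p = 0.0133) and -0.86 ± 0.45 (0.132). None of these differences is given with a library left out. Contacts across are also the more distant ones, with at least 142.699 kb between fragments, so side and distance were only partly separated. Between 200 and 400 kb, where both occur, the median log2 fold over pro-B was -1.27 for 6 near side pairs, 0.35 for 12 far side pairs and -0.29 for 83 pairs across, and over MEF it was -1.28, 0.29 and -0.49. The difference at that distance was not tested. The split was chosen after the positions, and with earlier values known.

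A single long pair weighed on the sums over 400 kb and across the sides. FOR 399 with REV 545, 570 kb apart, had 68637 and 105100 reads in resting B libraries, 51291 and 122374 reads in pro-B libraries, and 88596 and 33020 reads in MEF. It held 36.7% to 69.2% of all member reads over 400 kb, where the median pair had 80.5 to 125 reads, and it was the member with the most reads in resting B replicate 2. Its folds did not pass (-0.07 ± 0.72 over pro-B and 0.28 ± 0.72 over MEF, edgeR adjusted p = 0.959 and 0.853), and its CPM differed widely between replicates, at 2877 and 4864 in resting B, 2927 and 5198 in pro-B, and 5180 and 1205 in MEF.

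Without this pair, the sum over 400 kb was lower in resting B than in pro-B cells (log2 fold -1.14 ± 0.31, edgeR adjusted p = 0.0266) and higher in pro-B cells than in MEF (1.24 ± 0.31, edgeR adjusted p = 0.0437), while resting B over MEF was 0.10 ± 0.31 (0.778). The sum across the sides was then -1.0 ± 0.29 over pro-B (edgeR adjusted p = 0.0224). The fold within the near side minus the fold across was then -0.85 ± 0.30 over pro-B (edgeR adjusted p = 0.0452) and -1.66 ± 0.30 over MEF (0.00457), and for the far side -0.47 ± 0.28 (edgeR adjusted p = 0.193) and -1.16 ± 0.28 (0.0152). Leaving out either resting B library ended the calls over pro-B (adjusted p of 0.127 to 0.160 for the sum over 400 kb and 0.129 to 0.136 across the sides), and leaving out MEF replicate 2 also ended the call across the sides (0.0739), all by edgeR. The pro-B over MEF call held in 2 of 6 such fits, without pro-B replicate 1 or 2, and the 4 others gave adjusted p from 0.0975 to 0.210 by edgeR.

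The next long pair, FOR 399 with REV 522 at 493 kb, had 5944 and 6168 reads in resting B libraries, 40431 and 17268 reads in pro-B libraries, and 7931 and 4198 reads in MEF. Both pro-B libraries were above the other 4. Without it as well, the sum over 400 kb was 0.89 ± 0.25 in pro-B over MEF and did not pass (edgeR adjusted p = 0.0700), and -0.73 ± 0.25 in resting B over pro-B (0.0485). The most distant pair with at least 100 reads in a library, FOR 377 with REV 571 at 711 kb, had 113 and 196 reads in resting B libraries, 48 and 108 reads in pro-B libraries, and 31 and 138 reads in MEF. Both resting B libraries were above both pro-B libraries, by a fold that did not pass (0.91 ± 0.87, edgeR adjusted p = 0.515), and the MEF libraries overlapped both.

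Loops were pairs over 50 kb apart whose count exceeded a model of distance and primer strength by at least 2 standardised units (the residual) in each replicate. Of the 368 members over 50 kb, resting B cells had 10, pro-B cells 6 and MEF 3, against 109, 45 and 25 of 12038 Igh pairs. At a residual of at least 3 the members' counts were 5, 3 and 3, against 52, 33 and 18 of the 12038 Igh pairs. Numbers of loops depend on each library's spread, so they were not compared between cell types.

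All 3 MEF loops were also called in resting B and in pro-B cells: FOR 377 with REV 398 (51.6 kb), FOR 526 with REV 512 (72.7 kb) and FOR 399 with REV 545. Another, FOR 399 with REV 522, was shared by resting B and pro-B cells, so 4 of the 10 resting B loops and 4 of the 6 pro-B loops were common to both. A loop call did not mean an equal count: FOR 526 with REV 512 had 4009 and 3539 reads in resting B libraries, 113894 and 73056 reads in pro-B libraries, and 60479 and 37739 reads in MEF (log2 fold -4.85 ± 0.68 over pro-B, edgeR adjusted p = 0.0214).

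FOR 399 with REV 450 and FOR 436 with REV 464, 2 of the lower pairs above, were loops in pro-B cells alone, with residuals of 2.77 and 4.95, and 2.06 and 2.64 in the pro-B libraries. In resting B cells their residuals were 0.01 and -0.09, and 0.11 and -0.08. In MEF they were 1.45 and 0.88, and 0.74 and 0.90, so no loop was called there, although the log2 observed over expected reads of FOR 399 with REV 450 were 3.74 and 3.63 in pro-B libraries and 4.22 and 3.52 in MEF. Of the 6 loops called in resting B cells alone, 3 held REV 499 at the start of the far side, with FOR 436, FOR 458 and FOR 542. For FOR 436 with REV 499 the log2 observed over expected reads were 3.72 and 3.87 in resting B libraries, and larger elsewhere, at 4.07 and 4.41 in pro-B libraries and 4.63 and 4.90 in MEF, so that call rests on the residual and not on the ratio. These were chosen by the loop call, and no test of the difference in residual was run.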

How the data were processed

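Ligation products were counted by 5C in 6 libraries, grouped by their titles in the labels. The deposited values are raw counts per forward and reverse primer, and reads were 42 bases long, per the file headers; a pair that is not listed was taken as 0. The submitters' processing notes name Novoalign (no version stated) and mm9. There were no molecular identifiers, so intervals and floors hold counting error alone. The last deposited column is 1 throughout and was not used.

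Igh and desert pairs with 10 or more reads in 2 or more libraries were tested with edgeR 4.0.16 in R 4.3.3, with TMM scaling and a quasi-likelihood model of cell type over the 6 libraries. P-values were adjusted by Benjamini and Hochberg's method over 11940 Igh pairs (threshold 0.05). Each SE is the size of the log2 fold over the root of its F statistic. Sums used the same scaling, except that reads with the desert were scaled by their own totals with TMM factors, and were adjusted over all sums of their kind, and mean logs were tested with limma 3.58.1 with a pseudocount of 1 CPM. Expected counts for loops were fitted within each library from primers and a spline of distance with 4 degrees of freedom.

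Named pairs were up to 8 per direction and comparison in order of p past the threshold (4 whose groups do not overlap where fewer than 4 passed), the 6 with the highest mean CPM and the most distant; named fragments were up to 5 per direction. FOR 526 with REV 512 and the other loops were named by the loop call. Members, regions and lists were chosen with earlier results of these data known. The edgeR fits of primer pairs and of region sums were first tested on simulated counts, and the other fits were not. Those counts were drawn with the same spread for every cell type, whereas replicate spread in these libraries was unequal between cell types. Deviations of samples with the same replicate number correlated at 0.0875, 0.00597 and -0.0282, so the numbers were not taken to pair samples.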

Additional observations from a re-analysis of the deposited data

How the results depend on the processing

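Counts of called pairs depended on single libraries, and low read counts left 23 members untested. Counts in this section are of members, and those of pairs over all Igh pairs under the same settings are not given. Values are given for resting B over pro-B (a), resting B over MEF (b) and pro-B over MEF (c), first for pairs higher, pairs lower and the median log2 fold. Scaling to total cis reads gave 4 higher and a median of -0.57 in a, 17 lower and -0.47 in b; scaling to desert reads gave 4 and -0.54, and 14 and -0.24. Fitting only the 4 libraries compared gave 0 higher and 0 lower in a, and 8 higher and 136 lower in b. The distance correction gave 4 higher, a median of -0.38 and a region sum of -0.69 in a, and 8 lower, -0.43 and -0.51 in b. Only pairs over 50 kb gave 1 higher, 36 lower, a median of -0.60 and a sum of -1.04 in a, and 0 lower and a sum of -0.74 in b. No filter, and a minimum of 50 reads, each gave 8 lower in b. DESeq2 called 18 higher and 136 lower in a, 1 and 86 in b, and 9 and 3 in c. The desert offset, added after seeing the data, gave 0 higher, 0 lower, a median of -0.11 and a sum of -0.93 in a; 0 lower, -0.29 and -1.13 in b; and a median of -0.26 and a sum of -0.20 in c. Counting each pair once gave -0.000231 in c. The replicate block gave 0 higher and 34 lower in a, 1 lower in b, and a near against far difference of -0.00138 in b. It used numbers that do not pair the samples.

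Leaving out 1 library gave, in a, 0 to 87 higher, 0 to 170 lower, a median of -1.0 to -0.54, a sum of -1.89 to -1.09, 0 to 4 distance classes and 0 to 33 fragments lower. In b it gave 0 to 8 higher, 0 to 141 lower, a median of -0.86 to -0.62, a sum of -1.84 to -0.86, 0 to 3 classes and 0 to 33 fragments lower. In c it gave 0 to 22 higher, 0 to 85 lower, a median of -0.20 to 0.24, a sum of -0.39 to 0.68, 0 to 2 classes and 0 to 9 fragments higher. The near against far difference was -0.28 to 0.21 in a, -0.10 to 0.12 in b and -0.20 to 0.28 in c, and the near against middle one -0.19 to 0.15 in b. Total cis scaling called 1 fragment higher and 1 lower in c. Without FOR 399 with REV 545, 1 class passed in c and the sum across sides was -0.17 in b. At a residual of 3, loops were 5 in resting B and 3 in pro-B cells, against 52 and 33 of 12038 Igh pairs. Among values that changed sign, FOR 399 with REV 398 was 0.13 with the desert offset in a. FOR 573 with REV 571 was 0.40 with the distance correction in a, and 0.58 with it and 0.0832 with desert scaling in b. The sum from 200 to 400 kb was 0.0662 (total cis) and 0.16 (desert) in a and 0.0904 and 0.325 in b, and -0.76 to 0.37 in a without 1 library. The sum over 400 kb was -0.36 to 1.16, and the sum across sides -0.38 to 0.66, in b without 1 library. The cause of these changes was not tested.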
